A study of Mus musculus with 5 samples.

Results

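Otx2, Zic1, Zic2 and Sox1 are transcription factor genes known for their roles in the anterior and neural ectoderm of the mouse embryo. They were followed here over 5 arrays that cover the differentiation of mouse embryonic stem cells (ESCs) towards heart muscle. Every probe whose gene symbol, ignoring case, was one of these 4 names was taken, and each gene had 1 probe, so that 4 of 20377 named probes and 4 of 17742 genes were studied. Each of the 5 groups held 1 array of total RNA. They were ESCs at day 0 (labelled control), cells with a knockdown of the long non-coding RNA Linc1405 and control cells on day 4, labelled mesoderm, and knockdown and control cells on day 10, labelled cardiomyocytes. The labels give 46C as the ESC line, grown with serum and leukaemia inhibitory factor on feeder cells that were taken off before harvest. The medium was serum-free with Bmp4, Activin A and VEGF for the mesoderm cells, and it held bFGF, VEGF and FGF10 for the cardiomyocytes. The 46C line is known for a fluorescent reporter placed at the Sox1 locus, a modification that all 5 groups would share, and the sources used here do not say where the Sox1 probe lies relative to it. Sample names of the knockdown carry the letters KIpA, and neither their meaning nor the number of clones behind the line is stated. No named probe could be matched to Linc1405, and the knockdown itself was therefore not checked.

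Otx2 is a bicoid-type homeodomain factor that the epiblast uses early and that later is required for forebrain and midbrain. Zic1 and Zic2 are zinc finger factors of the dorsal neural tube, and Zic2 is also expressed in ESCs and epiblast, while Zic1 is also known from the somites. Sox1, a SoxB1 factor of the HMG-box class, is among the earliest markers of cells committed to the neural plate. In the gastrulating embryo posterior signals restrict Otx2 to the anterior end, while Cdx and Hox genes mark posterior positions.

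Start-site windows are shown for the 3 genes that had one in the RefSeq promoter table (build GRCm38.p6), because Otx2 and Zic1 carried the widest differences between knockdown and control, and Sox1 the narrowest spread over the arrays. Each runs from 250 bases before to 50 bases after an annotated start, 5′ to 3′ on the gene's strand. The Otx2 window (chr14:48665060-48665359, minus strand) is 1 of 4 for that gene and was chosen because it holds an Otx-type match, the Zic1 window is chr9:91365719-91366018 (minus strand), and the Sox1 window is chr8:12395269-12395568 (plus strand). Capitals mark letter matches on either strand.
Otx2: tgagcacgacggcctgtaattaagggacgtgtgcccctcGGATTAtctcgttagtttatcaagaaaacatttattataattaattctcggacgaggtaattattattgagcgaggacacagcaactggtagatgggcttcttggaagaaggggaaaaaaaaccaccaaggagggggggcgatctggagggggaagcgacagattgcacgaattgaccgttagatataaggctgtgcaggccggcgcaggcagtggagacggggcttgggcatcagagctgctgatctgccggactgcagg
Zic1: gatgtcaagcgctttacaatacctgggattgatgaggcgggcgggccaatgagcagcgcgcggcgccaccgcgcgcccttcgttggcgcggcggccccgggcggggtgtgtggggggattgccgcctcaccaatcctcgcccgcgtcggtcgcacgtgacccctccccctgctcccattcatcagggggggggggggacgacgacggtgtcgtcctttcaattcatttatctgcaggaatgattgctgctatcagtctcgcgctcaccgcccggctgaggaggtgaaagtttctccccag
Sox1: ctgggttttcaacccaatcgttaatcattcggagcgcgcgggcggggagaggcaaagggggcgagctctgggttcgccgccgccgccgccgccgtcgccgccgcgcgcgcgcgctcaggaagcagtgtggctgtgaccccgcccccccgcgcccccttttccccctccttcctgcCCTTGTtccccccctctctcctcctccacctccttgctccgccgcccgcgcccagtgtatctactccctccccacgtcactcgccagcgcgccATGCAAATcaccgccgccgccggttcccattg
The motifs searched were TAATCC (Otx homeodomain), ATGCAAAT (the octamer of POU factors), ACAANG (Sox), AGGTGTGA (T-box), CCTGCTG (Zic) and TATAAA. None of the 6 overlaps another in the capitals shown. TAATCC, the match for which this Otx2 window was chosen, lay at position -211, with the start counted as 0. No other Otx2 window held it. Of the 32851 windows in the table, 7.06% held it, a share for any single window and not for 1 chosen from 4. In the Sox1 window the octamer lay at position 18 (1.74% of windows hold one), and an ACAANG match lay at -75 (41.2% of windows). The Zic1 window held 0 matches to any of the 6, and AGGTGTGA was in 0 of the 6 windows of the members (1.28% of all windows). These are matches of letters and not sites. The Otx2 window shown had 51% G and C bases, against 65.3% for Zic1 and 70.7% for Sox1, beside a median of 52.7% over all windows. The Zic1 and Sox1 windows lie at the outermost annotated start, and the Otx2 window shown does not. The window at the outermost Otx2 start had 41.7% G and C bases and a TATAAA match at -192.

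The deposited intensities were quantile normalized over the 5 arrays, set to a floor of 100 (6.64 on the log2 scale) and converted to log2 levels. A gene counted as higher or lower in a pair of arrays where the brighter array reached the 50th percentile of all values (a log2 level of 9.16, called the intensity filter below) and the arrays lay at least 2-fold apart. Each group being 1 array, the spread between cultures is unknown, and all differences are given without a test. Probe error alone could be estimated, from genes with more than 1 probe past the filter. The SD of a single probe's log2 difference was 0.207 for knockdown against control at day 4 and 0.272 at day 10. Over time it was 0.612 for control day 4 against ESCs, 0.743 for control day 10 against control day 4 and 0.709 for the same interval in knockdown cells. Array medians before normalization lay between 344 and 745. The labelled cell types were checked against their markers. Of 8 measured pluripotency markers, 8 were above the filter in ESCs, 5 in control cells at day 4 and 4 on each other array. Of 10 streak and mesoderm markers, 10 were above it in both day 4 arrays, 4 in ESCs, and 7 and 8 in knockdown and control cells at day 10. Of 7 cardiomyocyte markers, 7 were above it in both day 10 arrays, 3 in both day 4 arrays and 2 in ESCs. Liver-type endoderm markers at day 10 were above it for 8 of 9 in knockdown and 9 of 9 in control cells. These counts thus do not show that an array held the labelled cell type alone. The cells were measured in bulk, so fewer cells of a type and less RNA per cell cannot be told apart.

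Otx2 was the member with the widest range, 6.71 on the log2 scale. Its log2 level was 14.07 in ESCs, 8.18 in knockdown and 11.08 in control cells at day 4, and 7.37 in knockdown and 7.36 in control cells at day 10. The ESC array was far above the rest, the control array at day 4 was intermediate, and the other 3 arrays lay below the intensity filter. On the deposited scale these were intensities of 14800 in ESCs, 394 and 2402 in knockdown and control cells at day 4, and 108 and 94 in knockdown and control cells at day 10.

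**Figure D1:**
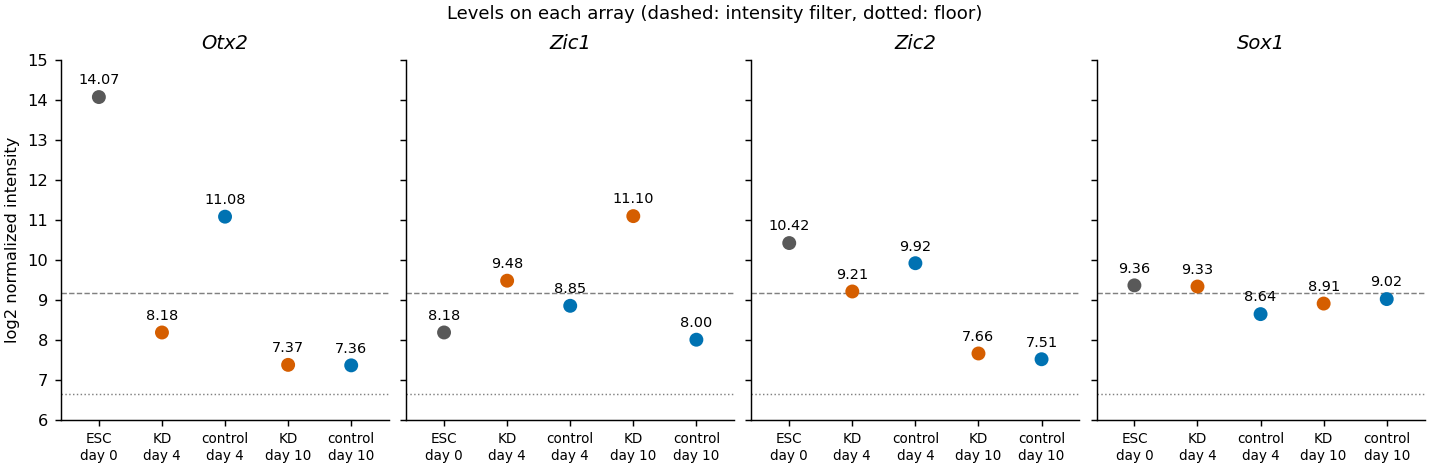
Log2 normalized intensity (vertical axis) of Otx2, Zic1, Zic2 and Sox1 on each of the 5 arrays, 1 point for each array, with knockdown (KD) in orange, control in blue and ESCs in grey. Otx2 spans 14.07 to 7.36, Zic1 is highest in the knockdown array at day 10 (11.10), Zic2 is lower at day 10 than before in both lines, and Sox1 stays between 8.64 and 9.36.

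At day 4 Otx2 was lower in knockdown than in control cells by a log2 difference of -2.90, a 7.46-fold lower intensity. It held rank 9 from the lowest among 10699 genes past the filter. Otx2 was the 1 member of 4 that passed the 2-fold threshold in this comparison, where 2.27% of genes past the filter did so in either direction, 1.47% as lower and 0.804% as higher. The other members had smaller differences of both signs: -0.71 for Zic2, 0.63 for Zic1 and 0.69 for Sox1. Each of these was more than 3 times the between-probe SD, but under 2-fold. That SD pools probes of all intensities past the filter and may be too small for dim probes. Zic1 and Sox1 were below the filter in control cells (8.85 and 8.64) and little above it in knockdown cells (9.48 and 9.33). The ranks were 283 from the lowest for Zic2, 230 from the highest for Zic1 and 187 from the highest for Sox1. The 4 genes thus did not differ in one direction.

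At day 10 the order was another. Zic1 was higher in knockdown than in control cells by a log2 difference of 3.09, an 8.53-fold higher intensity, at rank 12 from the highest among 10886 genes past the filter. It was the 1 member past the filter and the 1 called, beside 6.11% of genes called in either direction, 2.5% as higher and 3.61% as lower. Otx2 differed by 0.01, Zic2 by 0.14 and Sox1 by -0.11, and all of these were below the filter in both arrays. They lay within the between-probe SD, which was estimated only on probes past the filter. The sign of these last values changed with the scaling: under scaling to a common 75th percentile Otx2 stood at -0.32 and Zic2 at -0.12, and on the values as deposited Sox1 stood at 0.31. The day 10 difference minus the day 4 difference was 2.91 for Otx2, 2.46 for Zic1, 0.85 for Zic2 and -0.80 for Sox1, and with 1 array a group these changes between days were not tested.

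**Figure D2:**
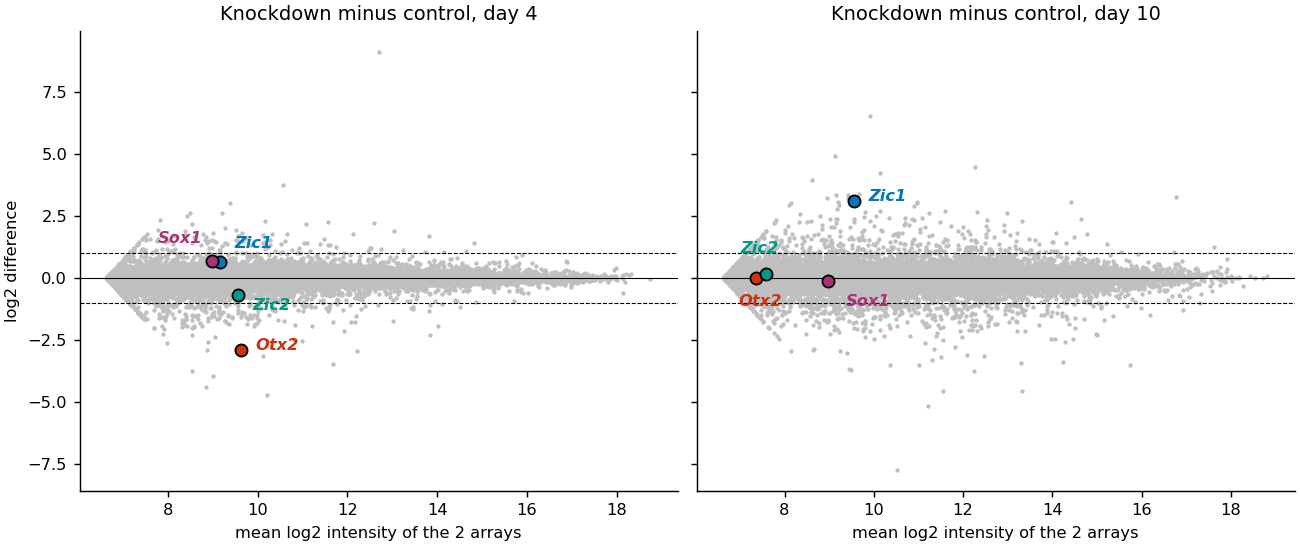
Log2 difference of knockdown minus control (vertical axis) against the mean log2 intensity of the pair (horizontal axis) for all named genes in grey and the 4 members in colour, at day 4 on the left and day 10 on the right. Dashed lines mark 2-fold. Otx2 lies at -2.90 on day 4 and Zic1 at 3.09 on day 10, and all other values of the members lie inside the dashed lines.

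Zic1 had a log2 level of 8.18 in ESCs, 9.48 in knockdown and 8.85 in control cells at day 4, and 11.10 in knockdown and 8.0 in control cells at day 10. The 3 arrays without the knockdown were below the filter, and both knockdown arrays were above it. As deposited, the intensities at day 10 were 2184 in knockdown and 145 in control cells. Within the knockdown line Zic1 was higher at day 10 than at day 4 by 1.62. Control cells gave -0.85 over the same interval (-1.89 to -0.69 under the other settings), a pair of arrays both below the filter. From ESCs to control day 4 the difference was 0.67.

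Zic2 had a log2 level of 10.42 in ESCs, 9.21 in knockdown and 9.92 in control cells at day 4, and 7.66 in knockdown and 7.51 in control cells at day 10. It was thus brightest in ESCs and below the filter at day 10 in both lines. The control difference was -0.50 from ESCs to day 4, within the between-probe SD. From day 4 to day 10 it was -2.40 in control cells, a 5.29-fold lower intensity, and -1.55 in knockdown cells, and both passed the 2-fold threshold.

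Sox1 had a log2 level of 9.36 in ESCs, 9.33 in knockdown and 8.64 in control cells at day 4, and 8.91 in knockdown and 9.02 in control cells at day 10. The whole range was 0.72, around the intensity filter, and none of its 5 differences reached 2-fold. The control difference from ESCs to day 4 was -0.72. From day 4 to day 10 the values were 0.38 in control and -0.43 in knockdown cells, and on the values as deposited they were -0.59 and -1.11. The ESC array and the knockdown array at day 4 were the highest for this neural plate marker, and no array stood apart from the others by 2-fold.

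In control cells Otx2 was 7.96-fold lower at day 4 than in ESCs (log2 difference -2.99) and 13.2-fold lower at day 10 than at day 4 (-3.72). From ESCs to control day 4, 3 members passed the filter and 1 (Otx2) was called lower, where 26.8% of all genes past the filter were called, 12.8% as higher and 13.9% as lower. From control day 4 to day 10, 2 passed the filter and both (Otx2 and Zic2) were lower, where 38.4% of genes were called, 19.1% as higher and 19.4% as lower. From knockdown day 4 to day 10, 3 passed the filter, with Zic1 higher and Zic2 lower, where 36.8% of genes were called, 18.7% as higher and 18.1% as lower. Calls over time were thus frequent among all genes. In knockdown cells Otx2 differed by -0.81 from day 4 to day 10, both arrays being below the filter already, and by -1.87 to -0.54 under the other settings, the first as deposited. Of 8 measured fibroblast and feeder markers, 3 were above the filter in control cells at day 4 and 5 in ESCs, with summed intensities of 21157 in control cells at day 4 and 64278 in ESCs. At day 10, 7 of 8 were above the filter in both lines, with summed intensities of 303000 in knockdown and 276840 in control cells, so these markers also moved over the interval in which Otx2 and Zic2 were called. Their part in the members' levels was not tested.

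The family relatives of the members behaved unlike one another. Sox2, a SoxB1 factor of pluripotent and neural cells, had log2 levels of 17.26 in ESCs, 10.58 and 11.35 in knockdown and control cells at day 4, and 9.09 and 8.88 in knockdown and control cells at day 10. Its differences between knockdown and control were -0.77 at day 4 and 0.21 at day 10. Sox3, the third SoxB1 gene, stayed between 9.0 and 10.20 and differed by 0.17 at day 4 and 0.58 at day 10. Otx1, the closest relative of Otx2, was at 7.26 in knockdown and 8.68 in control cells at day 4, a difference of -1.43 between arrays below the filter, and at the floor in both at day 10. Crx, an Otx-type gene of photoreceptors, stayed below the filter on all arrays. Zic4, which overlaps Zic1 in the annotation, was at the floor on all 5 arrays, so the higher Zic1 level in knockdown cells at day 10 had no counterpart on the Zic4 probe. Sox1ot, a non-coding gene that overlaps Sox1, was also at the floor on all 5, and Otx2os1, the nearest annotated gene after Otx2, was at 6.77 in ESCs and at the floor elsewhere. Zic5 had no named probe and was not analysed here. Of the 5 measured relatives, 2 passed the filter at day 4 and 1 at day 10, and 0 of these were called between knockdown and control. The others were too dim to be called.

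The wider list of anterior neural plate factors had 25 measured genes besides the members. This list and those below were chosen with earlier results of these data known. Their counts beside the shares of all genes are therefore no test of the lists. At day 4, 1 was higher in knockdown cells (Lhx2, a LIM homeodomain factor of forebrain and limb, 1.40) and 1 lower (Fezf2, a forebrain zinc finger factor, -1.95), 10 passed the filter, and the median log2 difference was 0, as over all genes. Among all genes past the filter 0.804% were higher and 1.47% lower. Fezf2 had levels of 8.95 in knockdown and 10.90 in control cells. At day 10, 10 of the 25 passed the filter, and 3 were higher and 0 lower, beside 2.5% higher and 3.61% lower among all genes past the filter. These were Emx2 (2.24), a homeodomain factor of forebrain and urogenital tissue, Nr2f1 (1.65), an orphan nuclear receptor, and Lhx2 (1.51). Emx2 was at 9.61 in knockdown and 7.38 in control cells, and Nr2f1 at 13.33 and 11.68 in knockdown and control cells. Six6 was at the floor on all 5 arrays, and Rax and Hesx1, further factors of the forebrain and eye field, did not exceed 7.47 on any array. With the members included the counts were 1 higher and 2 lower of 29 at day 4, and 4 higher and 0 lower at day 10.

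**Figure D3:**
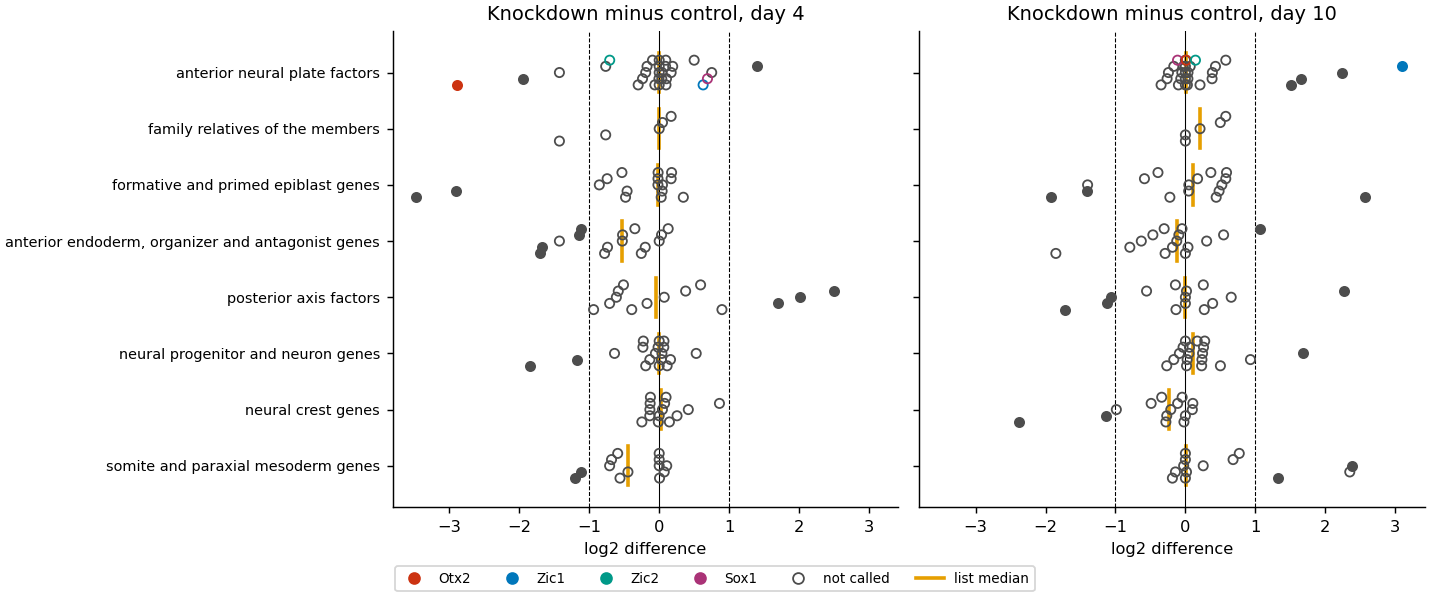
Log2 difference of knockdown minus control (horizontal axis) for the measured genes of 8 lists (rows), at day 4 on the left and day 10 on the right. Filled points passed the filter and the 2-fold threshold, open points did not, members are in colour, orange bars are list medians, and points are spread vertically only to keep them apart. Otx2 is the lowest anterior neural gene at day 4 (-2.90) and Zic1 the highest at day 10 (3.09).

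Genes that the epiblast expresses with Otx2 were mixed at day 4. Of 16 measured formative and primed epiblast genes, 15 passed the filter, 2 were lower in knockdown cells and 0 higher, beside the same 1.47% and 0.804%: Tdgf1, the Nodal coreceptor Cripto, at 9.94 in knockdown and 13.43 in control cells (-3.48), and Fgf5, a ligand of the primed epiblast, at 7.42 and 10.32 in knockdown and control cells (-2.91). The list median was -0.02. Dnmt3b, a DNA methyltransferase, differed by -0.46, and Pou3f1, a POU factor of epiblast and neural ectoderm, by 0.05. At day 10, 14 passed the filter, 2 were lower (Car14, -1.92, and Tdgf1, -1.40) and 1 higher (Fgf5, 2.56). Among all genes past the filter at day 10, 3.61% were lower and 2.5% higher.

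Anterior endoderm, organizer and antagonist genes, which include sources of signals that keep the anterior end free of Wnt and Nodal activity, had a median of -0.53 at day 4. Of 15 measured, 12 passed the filter, 4 were lower in knockdown cells and 0 higher, beside 1.47% lower and 0.804% higher among all genes past the filter. The 4 were Dkk1 (-1.71) and Frzb (-1.15), secreted Wnt antagonists, Foxa2 (-1.68), a forkhead factor of endoderm and node, and Lhx1 (-1.11), a LIM homeodomain factor of the organizer. Dkk1 was at 9.18 in knockdown and 10.89 in control cells. At day 10, 10 passed the filter, 1 was higher (Sfrp1, 1.06) and 0 lower, beside 2.5% higher and 3.61% lower among all genes past the filter.

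On the posterior side, 14 axis factors were measured and 12 passed the filter at day 4, of which 3 were higher in knockdown cells and 0 lower, beside 0.804% higher and 1.47% lower among all genes past the filter. The 3 were Hoxc9 (2.51), Cdx4 (2.01) and Cdx2 (1.71), with Cdx2 at 14.67 in knockdown and 12.96 in control cells. The median of the list was -0.05. Below 0 stood T (-0.94) and Evx1 (-0.51), both posterior streak factors, and Tbx6 (-0.71), Wnt8a (-0.61), Gbx2 (-0.59), Fgf8 (-0.39) and Hoxb1 (-0.17). Hoxb9 (0.90), Cdx1 (0.59), Wnt3a (0.38) and Msgn1 (0.07) stood above 0 without a call. At day 10, 9 passed the filter, 1 was higher (Hoxc9, 2.27) and 3 lower (Fgf8, -1.72, Evx1, -1.13, and Cdx1, -1.06), beside 2.5% higher and 3.61% lower among all genes past the filter.

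Markers of cell types in which the members are known were set beside them. All list counts here stand beside 0.804% higher and 1.47% lower among genes past the filter at day 4, and 2.5% and 3.61% at day 10. Of 18 measured neural progenitor and neuron genes, 10 passed the filter at day 4 and 9 at day 10, and 0 were higher and 2 lower in knockdown cells at day 4 (Dll1, a Notch ligand, -1.84, and Stmn2, a neuronal stathmin, -1.18). At day 10, 1 was higher (Stmn2, 1.68) and 0 lower, while Pou3f2, a neural POU factor, was at the floor in both arrays and Pax6, a homeodomain factor of neural progenitors, was at the floor in knockdown and at 6.81 in control cells. The number of these genes above the filter was 9 in each day 10 array, and their summed intensity was 70707 in knockdown and 40279 in control cells, most of it from the adhesion molecule gene Ncam1 (15.77 and 14.84 on the log2 scale). Somite and paraxial mesoderm genes, a group of interest for Zic1, numbered 13. At day 4, 8 passed the filter, 0 were higher and 2 lower (Dll3, -1.20, and Mesp2, -1.12), with a list median of -0.45. At day 10, 6 passed the filter, 2 were higher and 0 lower, with a list median of 0.02. The higher ones were Aldh1a2 (2.38), a retinoic acid synthesis enzyme at -0.68 on day 4, and Tcf15 (1.33), a factor of somites. Meox1, a somite homeodomain factor, was at 8.99 in knockdown cells and at the floor in control cells at day 10, below the filter. Cardiomyocyte markers were lower for 5 of 7 and higher for 1 at day 10, with summed intensities of 217814 in knockdown and 424733 in control cells. Liver-type endoderm markers were lower for 8 of 9 and higher for 0 at day 10 (median -2.50), with summed intensities of 32290 in knockdown and 197525 in control cells. The part of these cell types in the Zic1 difference was not tested. Markers of anterior visceral and definitive endoderm, tissues in which Otx2 is also known, were lower for 3 of 7 and higher for 0 at day 4 (median -0.99), and all 7 passed the filter. The 3 were Foxa1 (-1.95) and Foxa2 (-1.68), forkhead factors, and Spink1 (-1.74), a protease inhibitor. Their summed intensity at day 4 was 19696 in knockdown and 33576 in control cells, and their part in the Otx2 difference was not tested.

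Genes with the most similar profile were ranked by the root mean square distance between log2 levels over the 5 arrays, each gene centred on its own mean, among 11749 genes whose brightest array passed the filter, leaving out gene models and clones. The measure rests on 5 arrays and says nothing of function. Zic1 was closest to Hoxd10, at a distance of 0.045, and Hoxd10 was at 12.48 in knockdown and 9.43 in control cells at day 10. Khdrbs2 (0.277), Hoxa11 (0.416), the probe named DBC1 (0.453) and Ppp2r2b (0.481) followed, and with Hoxd10 these were the 5 genes within 0.5. Hoxa11 was at the floor in ESCs and in control cells at day 10, so its distance depends on the floor. Otx2 had 0 genes within 0.5. Its nearest were Trh (0.598), the gene of a releasing hormone, Tdgf1 (0.647), L1td1 (0.690), Dppa2 (0.737) and Pla2g1b (0.774), all highest in ESCs, and Trh was at 10.74 in knockdown and 13.68 in control cells at day 4. Zic2 had 383 genes within 0.5, led by Ptgds (0.197), Adgrd1 (0.198), Gnaz and Tmem238 (0.199 each) and Smtnl1 (0.213). Smtnl1, like Dppa2 above, was at the floor in both day 10 arrays. For Sox1 a flat profile lay at 0.270 and 4573 genes lay within 0.5, so its neighbours, led by Hspb6 (0.117), Ephb3 (0.129), Slc2a8 (0.134), Bola2 (0.145) and Stx19 (0.149), do not mark it out.

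**Figure D4:**
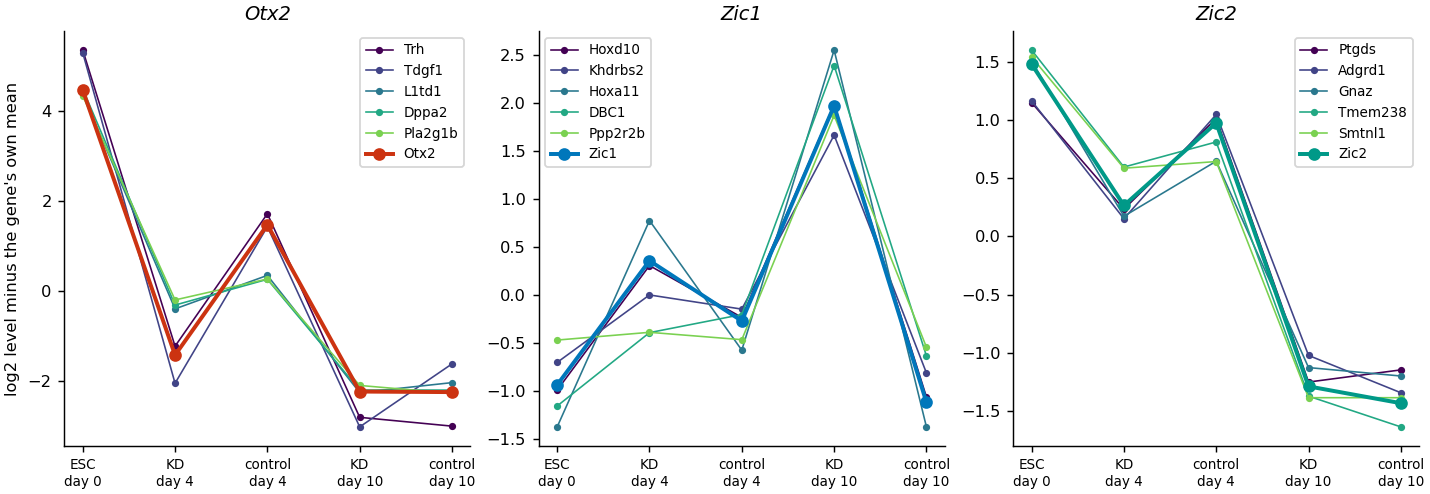
Log2 level minus the gene's own mean over the 5 arrays (vertical axis) for Otx2, Zic1 and Zic2 in thick lines, each with the 5 named genes of the smallest distance in thin lines. Lines join arrays of 1 gene to guide the eye. Hoxd10 runs with Zic1 at a distance of 0.045, while the nearest gene to Otx2, Trh, lies at 0.598.

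The calls of the members between knockdown and control did not change under the other ways of scaling the values. The Otx2 difference at day 4 lay between -2.94 and -2.61, and the Zic1 difference at day 10 between 3.07 and 3.91. Each member rested on 1 probe, so no second probe was available to check either value.

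**Figure D5:**
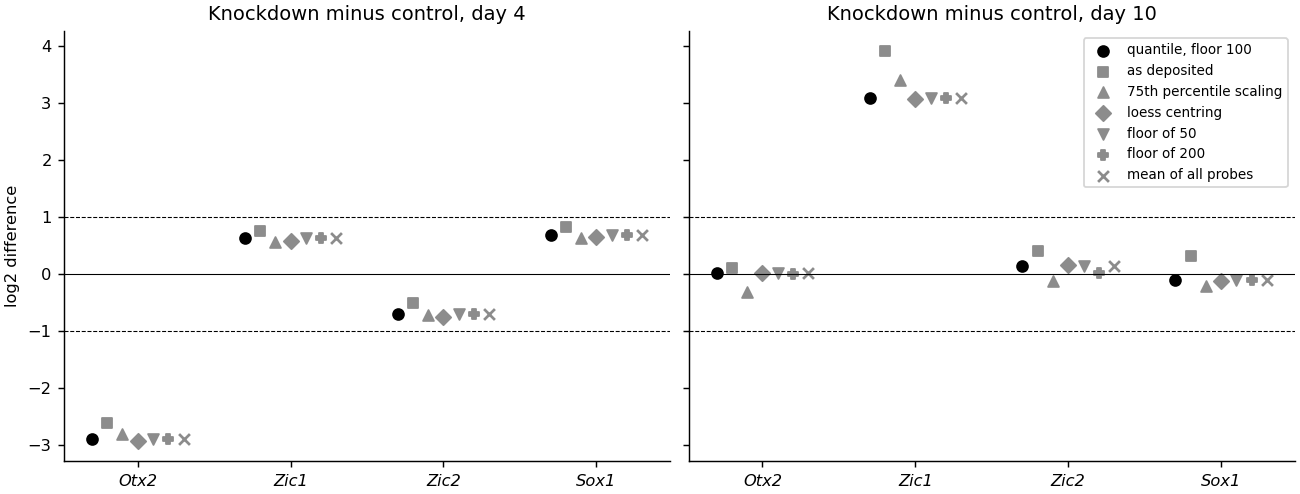
Log2 difference of knockdown minus control (vertical axis) for the 4 members at day 4 (left) and day 10 (right), with the values reported in black and the 6 other settings in grey, each with its own marker. The floor of 50 and the mean of all probes cannot move these values. Dashed lines mark 2-fold. Otx2 stays below -2.5 at day 4 and Zic1 above 3 at day 10 under each setting, and the remaining values stay inside the dashed lines.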

How the data were processed

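Single-colour arrays gave probe intensities for 5 samples, 1 for each group. The intensities deposited by the authors were on a linear scale, made with Agilent Feature Extraction 10.7.1.1 per the submitters' processing notes. Further steps by the authors and the genome build are not given in the sources used here. On the knockdown array at day 10, which holds the highest Zic1 level, 1050 probes were at or below 0, against 0 to 38 on the other arrays. Values at or below 0 show background subtraction, and array medians differed, so no normalization between arrays was seen. Detection and saturation marks were not used.

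Of 26423 probes, 20377 carried 1 gene symbol and 0 several, and the other 6046 had no name here. A RefSeq gene table (GRCm38.p6) gave current symbols: 18213 probes by current symbol and 2126 through a synonym, while 38 kept the older name. The brightest probe stood for each of 17742 genes. Values were quantile normalized, floored at 100 and converted to log2 (Python 3.11.15, numpy 2.4.6, pandas 2.3.3). The filter was the 50th percentile and the threshold 2-fold. The between-probe SD is that of the gap between the log2 differences of a gene's 2 brightest probes past the filter, divided by the square root of 2. It was taken over 1035 to 1166 genes. The steps were tested on simulated data. There are no p-values, and precision is limited by the number of arrays.

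The members and lists were chosen with earlier results of these data known. Named were all members, their measured relatives, overlapping or adjacent annotated genes, up to 4 called genes in each direction of a list, the 5 nearest profiles of each member, and markers of cell types. Genes named at the floor or without a call (Rax, Hesx1, Six6, Dnmt3b, Pou3f1, T, Evx1, Meox1, Pou3f2, Pax6, Ncam1) were chosen after their values were seen. The posterior axis list was named in full at day 4. Alternatives were the values as deposited, scaling to the 75th percentile, loess centring (span 0.3, 3 iterations), floors of 50 and 200, the mean of all probes, a 4-fold threshold, and either no filter or one set at the 75th percentile.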

Additional observations from a re-analysis of the deposited data

Results flagged for a closer look

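Among the members and the genes of the lists, Fgf5 and Stmn2 passed the 2-fold threshold in opposite directions at day 4 and day 10, and with 1 array in each group the difference between the days was not tested. Fgf5, a ligand of the primed epiblast, differed between knockdown and control by -2.91 at day 4 (log2 levels of 7.42 in knockdown and 10.32 in control cells) and by 2.56 at day 10 (9.62 in knockdown and 7.06 in control cells). Stmn2, a neuronal stathmin, differed by -1.18 at day 4 (10.59 in knockdown and 11.77 in control cells) and by 1.68 at day 10 (12.07 in knockdown and 10.39 in control cells). The Stmn2 probe was brightest in ESCs, at 14.60, so its level is not particular to neurons on these arrays. Each of the pair had 1 probe. Groups of 1 array cannot show a sample that stands apart from its group.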

How the results depend on the processing

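The mean of all probes and a floor of 50 could not move a member, since each has 1 probe and a normalized intensity above the floor of 100, and a floor of 200 could move only Otx2 and Zic2 at day 10. Under the 3 other scalings, 49 of 60 member differences moved by less than the between-probe SD and 11 by more. Under these scalings and floors no member that was called changed direction, and each kept its call. The calls of the members were not recomputed with a filter at the 75th percentile, without a filter or at 4-fold. Among called members, the values as deposited gave -2.61 for Otx2 at day 4 and 3.91 for Zic1 at day 10 (knockdown minus control). They gave -4.59 for Otx2 and -3.40 for Zic2 from control day 4 to day 10, and -2.49 for Zic2 over that interval in knockdown cells. Scaling to the 75th percentile gave 3.39 for Zic1 at day 10. Sox1 became a call under 1 setting, at -1.11 from knockdown day 4 to day 10 as deposited. Without normalization between arrays the median of all genes was at 0.20 and 0.37 for knockdown minus control at day 4 and day 10, 0.17 for control day 4 minus ESCs, -0.72 for control day 10 minus day 4 and -0.58 in knockdown cells. Against these medians Otx2 stood at -2.81 at day 4 and Zic1 at 3.55 at day 10. Scaling to the 75th percentile left the median of the last pair of intervals at -0.11 and -0.20.

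Counts of all genes called were 243 at day 4 (86 higher, 157 lower), against 367 without a filter, 57 with a filter at the 75th percentile, 30 at 4-fold, and a split of 135 higher and 118 lower as deposited. At day 10 they were 665 (272 higher, 393 lower), against 1254 as deposited (1094 higher, 160 lower), 297 with the stricter filter and 123 at 4-fold. With the stricter filter and at 4-fold, control day 4 minus ESCs gave 1438 and 1108 (3021 in the values reported), control day 10 minus day 4 gave 2496 and 1429 (4396), and the knockdown interval gave 2396 and 1304 (4201). The split as deposited was 2291 higher and 1261 lower for control day 4 minus ESCs (1447 and 1574 in the values reported). It was 1093 and 5484 for control day 10 minus day 4 (2182 and 2214) and 1408 and 4281 in knockdown cells (2139 and 2062). Loess centring gave 2487 higher and 1679 lower for control day 10 minus day 4. No paired analysis was possible because each group held 1 array, and no replicate could be left out. Signal near background limits the day 10 values of Otx2, Zic2 and Sox1. It also limits Zic1 in control cells at day 10 (145 as deposited, a log2 level of 8.0). The Zic1 pair at day 10 passed the filter through the knockdown array alone.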

Other observations

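Neural crest genes, a further list of cells in which Zic genes are known, had 14 measured members. Between knockdown and control, 10 passed the filter at day 4 and 0 were called (list median 0.02). At day 10, 9 passed the filter, 2 were lower (Mitf and Msx2) and 0 higher (list median -0.24). Among all genes past the filter 0.804% were higher and 1.47% lower at day 4, and 2.5% and 3.61% at day 10. Mitf, a factor of pigment cells, was at 10.78 in knockdown and 13.16 in control cells (-2.38). Msx2, a homeodomain factor, was at 8.19 and 9.33 in knockdown and control cells (-1.14). Foxd3, a crest and pluripotency factor, was at 8.96 in ESCs and at the floor on the other 4 arrays, and Sox10, a crest factor, lay between 9.06 and 10.83.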
